A study of Mus musculus with 12 samples.

Results

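The 10 genes described here are Pdcl3, Phtf1, Wrb, Wwp1, Abcb10, Scly, Mmd, Pptc7, Slc22a23 and Chfr. They were listed because earlier results of these same data had them lower in cells with the hairpin sh4, directed against Stag2, than in cells with the control hairpin shNT. All 10 were found among the 23337 gene symbols of the count table, and all 10 passed the filter on low counts, as did 12406 genes in all. The values that chose the genes are the differences between sh4 and shNT, so these differences are given below as a description and support nothing.

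RNA sequencing was done on 12 libraries of NU1, a line of normal mouse urothelial cells that became immortal spontaneously through passaging. Proliferating cells (prol) carried shNT, labelled wild type, or sh4, labelled Stag2-KD. Quiescent cells (d7, differentiation day 7) carried the same hairpins, and had been grown to confluence and then kept in 1 µM rosiglitazone, an agonist of PPAR gamma, and 0.5 µM erlotinib, an inhibitor of the EGF receptor kinase. Each of these 4 groups had 3 libraries, 1 each from experiments 5, 7 and 9, which the labels also give as batches 3, 1 and 2. The hairpins were delivered by lentivirus. The libraries hold 1 hairpin against Stag2, so an effect of losing Stag2 and an effect of this hairpin on other transcripts cannot be told apart here. The labels do not say whether the experiments were separate infections, so the errors measure the spread between these libraries.

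A short hairpin RNA is cut by Dicer into a duplex, and 1 strand of it, the guide, is loaded into an Argonaute protein. A guide that pairs along its whole length with a transcript leads to its cleavage. The guide can also act as a microRNA does: pairing of bases 2 to 8 at its 5′ end, the seed, with a 3′ UTR is enough to lower a transcript modestly. Transcripts lowered in that way are called off-targets, and they are recognised by a short word that they share with the intended target. The intended target, STAG2, belongs to cohesin, a ring of proteins that keeps sister chromatids together and shapes chromatin loops.

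Library totals ran from 14524429 to 21987539 counts. The 10 genes had 56 to 2205 counts in a library. Intervals from counts would cover counting error only and leave out the spread between libraries. Reads copied by PCR are not independent molecules, so such intervals could also understate the counting error. Levels are given as CPM, counts scaled to the TMM-adjusted library total. Marker sums are scaled to the plain library total, without TMM. Summed over 11 urothelial and epithelial marker genes, the level lay between 11978 and 22909 CPM in the 12 libraries, with Trp63, a gene of basal urothelium, listed at 0 in all of them. This sum was 12297 to 18888 CPM in quiescent shNT and 22071 to 22909 CPM in quiescent sh4 libraries, and its part in the differences below was not tested. Fibroblast markers summed to at most 2.23 CPM, leukocyte markers to at most 9.47 CPM and endothelial markers to at most 0.245 CPM. Among the markers at 0 in every library were Col1a2, Col3a1, Lum, Emr1 and Cd3e.

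No label gives the sequence of sh4, so the word that the lower genes share was searched for in the data. Each 7-base word of the Stag2 transcripts, where the hairpin must pair, was looked for on the sense strand in the 3′ UTRs of 11856 tested genes other than Stag2, in GENCODE release M21 on GRCm38. Words were ranked by the median log2 fold change between sh4 and shNT of the genes that hold them, averaged over both states, among 4525 words held by at least 100 genes. TGACGCA ranked first. In proliferating and in quiescent libraries taken alone it also ranked first among the words of Stag2. The medians of both states entered the choice of the word, and both states come from the same experiments. These ranks and those that follow are therefore descriptions. Among all 15808 words of 7 bases held by at least 100 genes, from Stag2 or not, TGACGCA ranked first over both states. It ranked first in proliferating and second in quiescent libraries alone. It occurs in the 3′ UTR of 216 genes (1.82%) and of 7 of the 10 genes. This word was chosen on the same differences as the genes were, so the overlap is a description. Of 1738 mature mouse microRNA names in RefSeq on GRCm38.p6, 0 have a seed that would pair with it along its whole length.

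The sites are printed below because they are what most of these genes share with Stag2. Each runs 5′ to 3′ on the transcript strand, with the shared word in capitals.
Stag2: gaacctgatgaagaTGACGCAtatca
Pdcl3: gaaccttcttgataTGACGCAttgtc
Phtf1: aggtgcccgaagcaTGACGCAactgt
Wrb: tcagttacagaaagTGACGCAcacta
Wwp1: tcatccttaaatttTGACGCAagcaa
Abcb10: ctaatttaagccacTGACGCAcctac
Scly: tgtggaccaaaggaTGACGCAacccg
Mmd: agaaacgattccatTGACGCAcaccc
For Pptc7 and Chfr the neighbouring words of the same Stag2 stretch, shifted by 1 base, are in capitals.
Pptc7: tctgtgcaagtcagATGACGCtggtg
Chfr: tgtcagctgtgtcaGACGCATtctcc

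In Stag2 the word lies in the coding sequence, at chrX:42250025-42250031 on the plus strand, and all 3 coding transcripts hold it. In the other genes the sites lie in the 3′ UTR. The site of Pdcl3 starts 36 bases after the stop codon (chr1:38996319-38996325, plus strand), and that of Phtf1 starts at base 349 of a 3′ UTR of 482 bases (chr3:104007357-104007363, plus strand). The site of Wrb starts at base 429 (chr16:96156344-96156350, plus strand), of Wwp1 at base 226 (chr4:19611482-19611488, minus strand) and of Abcb10 at base 426 (chr8:123953876-123953882, minus strand). The site of Scly starts at base 787 of 845, close to the end of the transcript (chr1:91321017-91321023, plus strand). That of Mmd starts at base 554 (chr11:90277417-90277423, plus strand) and is in 1 of 2 coding transcripts, the one with the 3′ UTR of 1726 bases. The partial words of Pptc7 and Chfr lie at chr5:122322132-122322138 and chr5:110171305-110171311, both on the plus strand. The 3′ UTR of Slc22a23, with 3796 bases the longest of the 10, held neither the word nor 6 of its bases.

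Beyond the word, Pdcl3 resembles Stag2 most. Of the 14 bases upstream of the word, 9 are the same as in Stag2, more than at any other of the 219 such sites in 3′ UTRs, where the median was 3. The other 6 genes with the word matched Stag2 at 2 to 5 of these bases.

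Stag2 was lower in every sh4 library than in any shNT library. Within experiments 5, 7 and 9, the share of the control level left was 23.9%, 17.1% and 21.8% in proliferating cells and 7.38%, 12.1% and 10.9% in quiescent cells.

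Pdcl3 encodes a phosducin-like protein that assists the cytosolic chaperonin CCT. Its level was 65.3, 58.5 and 54.2 CPM in proliferating shNT libraries of experiments 5, 7 and 9, and 29.0, 26.2 and 23.4 CPM in the sh4 libraries. In quiescent cells it was 80.05, 67.5 and 83.1 CPM with shNT and 24.3, 28.0 and 26.7 CPM with sh4. The sh4 libraries of both states lay in 1 narrow band, and the control libraries were well above it, higher still in quiescence. The log2 fold change was -1.18 (SE 0.13) in proliferating and -1.55 (SE 0.13) in quiescent cells. The share of the control level left in proliferating cells was 44.4%, 44.7% and 43.1%.

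Phtf1 encodes a membrane protein of the endoplasmic reticulum named as a putative homeodomain factor. It was at 58.7, 58.5 and 54.9 CPM in proliferating shNT and at 28.4, 29.1 and 28.5 CPM in proliferating sh4 libraries. In quiescent cells it was at 49.3, 52.2 and 38.0 CPM with shNT and at 20.4, 21.8 and 18.8 CPM with sh4. The level in sh4 cells was near 50.0% ± 1.77 (SD, n = 3) of control in proliferating and 44.2% ± 4.58 (SD, n = 3) in quiescent cells, with no overlap between hairpins.

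Mmd, a member of the PAQR family of membrane proteins first described in maturing macrophages, had the largest difference of the 10 in both states. Proliferating shNT libraries held 72.9, 36.1 and 33.6 CPM and sh4 libraries 24.0, 11.4 and 12.2 CPM. In quiescent cells the values were 19.5, 14.2 and 15.7 CPM with shNT and 4.58, 5.13 and 3.28 CPM with sh4. Proliferating libraries of experiment 5 were the highest under both hairpins, and no sh4 library reached a shNT library of its state. The log2 fold change was -1.58 (SE 0.35) in proliferating and -1.92 (SE 0.37) in quiescent cells, and with the replicate block, an added term for the experiment, the errors were 0.22 and 0.24. Mmd thus had the widest spread of levels and, within proliferating experiments, an even ratio, with 32.9%, 31.7% and 36.2% of control left.

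**Figure D1:**
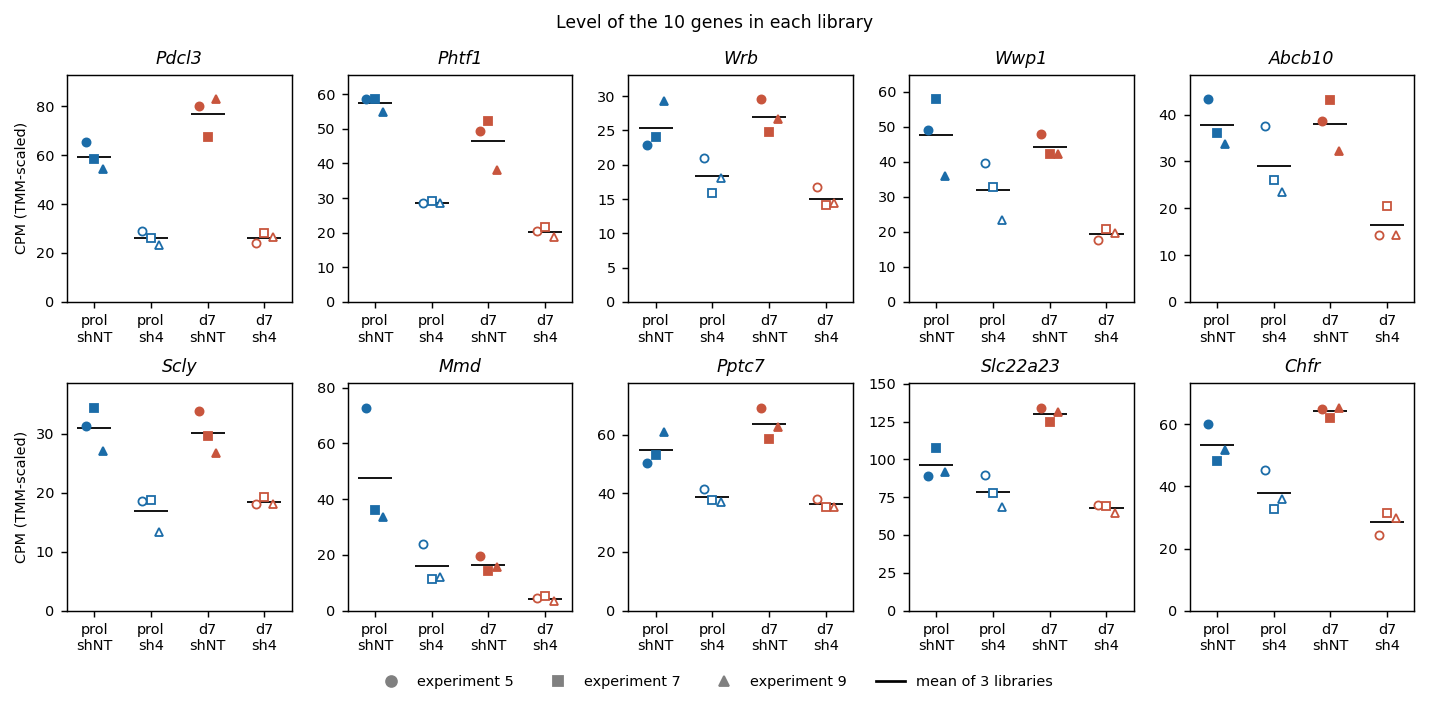
Level of each of the 10 genes in CPM (y axis, from 0) in the 4 groups (x axis: prol or d7, shNT or sh4). Filled symbols are shNT and open symbols sh4 libraries, symbol shapes give the experiment, and lines are means of 3 libraries. In quiescent cells all sh4 libraries lie below all shNT libraries for 10 of 10 genes, as for 8.85% of all genes. In proliferating cells they do for 7 of 10, as for 2.65% of all genes. The 10 genes were chosen for being lower with sh4.

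Scly encodes selenocysteine lyase, which releases selenium from selenocysteine for reuse. It was at 31.2, 34.4 and 27.0 CPM in proliferating shNT and at 18.5, 18.8 and 13.4 CPM in proliferating sh4 libraries. In quiescent cells it was at 33.8, 29.7 and 26.7 CPM with shNT and at 18.1, 19.3 and 17.99 CPM with sh4, without overlap in either state. Scly was the 1 gene with a smaller fitted difference in quiescent cells, -0.70 (SE 0.16) against -0.87 (SE 0.16) in proliferating cells.

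Wrb, Wwp1 and Abcb10 also hold the word, and their differences in proliferating cells were smaller. Wrb encodes a receptor subunit in the endoplasmic reticulum membrane for the insertion of tail-anchored proteins. Proliferating shNT libraries held 22.8, 24.1 and 29.3 CPM and sh4 libraries 20.98, 15.8 and 18.02 CPM, close together in experiment 5. In quiescent cells Wrb was at 29.6, 24.7 and 26.7 CPM with shNT and at 16.7, 14.1 and 14.4 CPM with sh4. Its log2 fold change was -0.47 (SE 0.15) in proliferating and -0.84 (SE 0.16) in quiescent cells. Wwp1, a HECT ubiquitin ligase of the NEDD4 family, had -0.58 (SE 0.21) and -1.19 (SE 0.21). Its proliferating libraries overlapped between hairpins, with 36.0 to 57.95 CPM for shNT and 23.3 to 39.5 CPM for sh4. In quiescent cells Wwp1 was at 48.0, 42.3 and 42.1 CPM with shNT and at 17.5, 20.9 and 19.7 CPM with sh4, which do not overlap. Abcb10, a transporter of the inner mitochondrial membrane linked to haem synthesis, had -0.38 (SE 0.21) and -1.21 (SE 0.21). It was at 43.4, 36.1 and 33.8 CPM in proliferating shNT and 37.7, 26.1 and 23.5 CPM in proliferating sh4 libraries, which overlap. In quiescent cells Abcb10 had 38.6, 43.1 and 32.1 CPM with shNT and 14.3, 20.6 and 14.3 CPM with sh4, which do not.

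The other 3 genes lack the full word. Chfr encodes a ubiquitin ligase with FHA and RING domains that delays entry into mitosis under stress. It was at 60.1, 48.1 and 51.7 CPM in proliferating shNT and 45.5, 32.8 and 35.8 CPM in proliferating sh4 libraries. In quiescent cells it was at 64.9, 62.2 and 65.4 CPM with shNT and 24.5, 31.5 and 29.9 CPM with sh4. Slc22a23, an orphan member of the organic ion transporter family, was at 89.1, 107 and 91.9 CPM in proliferating shNT and at 89.5, 77.5 and 68.2 CPM in proliferating sh4 libraries. In experiment 5 both hairpins thus gave nearly the same level. In quiescent cells Slc22a23 was at 134, 125 and 131 CPM with shNT and at 69.7, 69.1 and 64.6 CPM with sh4, without overlap. Pptc7, a mitochondrial protein phosphatase, ranged from 50.3 to 60.8 CPM in proliferating shNT and from 37.2 to 41.4 CPM in proliferating sh4 libraries. In quiescent cells its ranges were 58.7 to 69.3 CPM with shNT and 35.2 to 38.1 CPM with sh4. In proliferating cells the log2 fold changes of Chfr, Slc22a23 and Pptc7 were -0.49 (SE 0.15), -0.29 (SE 0.12) and -0.50 (SE 0.11). In quiescent cells they were -1.17 (SE 0.15), -0.94 (SE 0.12) and -0.81 (SE 0.11).

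Over the 10 genes the median log2 fold change was -0.54 in proliferating and -1.18 in quiescent cells, beside -0.0022 and 0.016 over all 12406 genes. By edgeR's quasi-likelihood test with an adjusted p under 0.05, 2 of the 10 genes were called lower in proliferating cells, Pdcl3 and Phtf1, where 0.0242% of all genes were. In quiescent cells 8 of the 10 were called lower, all but Scly and Mmd, where 0.282% of all genes were. With the replicate block 2 of 10 were called in proliferating cells (0.0242% of all genes) and 10 of 10 in quiescent cells (1.96% of all genes). The sh4 libraries lay wholly below the shNT libraries for 7 of 10 genes in proliferating cells, as for 2.65% of all genes, and for 10 of 10 in quiescent cells, as for 8.85% of all genes. These counts restate the choice of the genes. Leaving out 1 library left 0 to 2 of the 10 called in proliferating cells, with 0 when the shNT library of experiment 5 or 7 or the sh4 library of experiment 7 or 9 was left out. In quiescent cells 2 to 9 of the 10 were called, with 2, Pdcl3 and Phtf1, without the quiescent sh4 library of experiment 9, and 4 without the quiescent shNT library of experiment 5 or 9. Counts of 5 came without quiescent shNT of experiment 7, quiescent sh4 of experiment 5, or either proliferating library of experiment 7. In every such fit all 10 log2 fold changes were negative in both states. Over all genes, these fits called 1 to 3 in proliferating and 5 to 64 in quiescent cells, in either direction.

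The difference between the states was examined next, as the quiescent fold change minus the proliferating one. It was negative for 9 of the 10 genes, which means a larger drop in quiescent cells, and positive for Scly (0.17, SE 0.23). The largest values were those of Abcb10 (-0.84, SE 0.30), Chfr (-0.68, SE 0.21), Slc22a23 (-0.65, SE 0.17) and Wwp1 (-0.60, SE 0.29). Within experiments the drop was larger in quiescence in 3 of 3 experiments for 8 genes, in 2 for Mmd and in 1 for Scly. By edgeR with adjustment over all genes 0 of the 10 passed (adjusted p 0.9997 for each), as did 0% of all genes. Without adjustment, 3 of 10 had a p under 0.05, Abcb10, Chfr and Slc22a23, beside 219 of all genes (1.77%). With the replicate block 0 of 10 passed the adjusted threshold (lowest adjusted p 0.662, for Slc22a23; 0% of all genes), and 4 of 10 had an unadjusted p under 0.05, Wwp1 in addition, beside 590 of all genes (4.76%). The genes were chosen partly on the quiescent libraries, so that this difference is not independent of the choice. The genes with the largest proliferating drops, Mmd, Pdcl3, Phtf1 and Scly, had state differences of -0.34 (SE 0.50), -0.37 (SE 0.18), -0.19 (SE 0.18) and 0.17 (SE 0.23), none past the threshold. Stag2 itself had -1.05 (SE 0.26), also not past it (edgeR adjusted p 0.9997, or 0.526 with the replicate block).

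**Figure D2:**
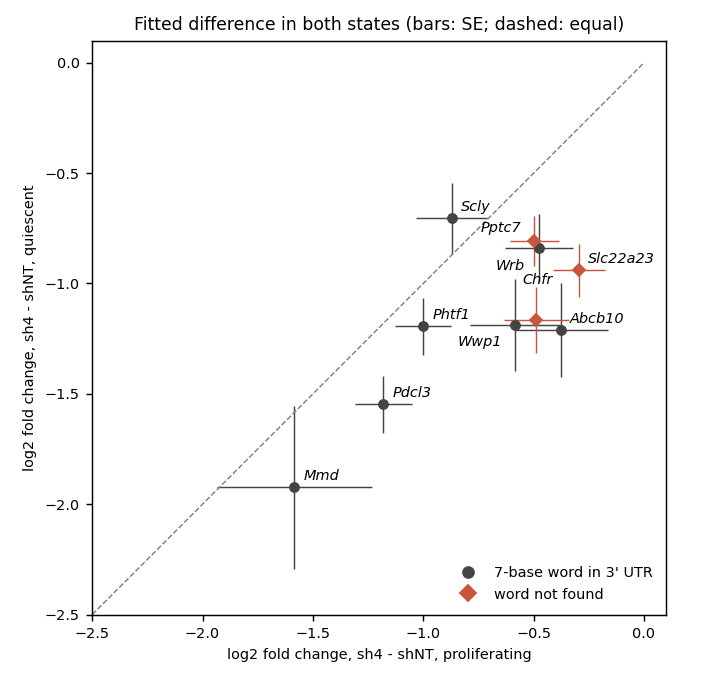
Fitted log2 fold change between sh4 and shNT in proliferating (x axis) and quiescent cells (y axis) for the 10 genes, with bars of 1 SE and a dashed line of equal change. Circles mark the 7 genes with the 7-base word in the 3′ UTR and diamonds the 3 without it; 9 of the 10 genes lie below the line and Scly above it.

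Evenness over experiments was measured by the log2 ratio of sh4 to shNT within each experiment. Of 30 such ratios in proliferating cells 29 were negative, the exception being Slc22a23 in experiment 5 (0.0062), and in quiescent cells all 30 were. The SD over the 3 experiments ran from 0.028 for Pdcl3 to 0.31 for Wrb in proliferating cells, with a median of 0.15 beside 0.17 over all tested genes. In quiescent cells it ran from 0.040 for Wrb to 0.41 for Mmd, with a median of 0.18 beside 0.23 over all tested genes. The SD was smaller in proliferating cells for 6 genes, Pdcl3, Phtf1, Chfr, Mmd, Scly and Abcb10, with 0.028, 0.051, 0.081, 0.10, 0.13 and 0.17 against 0.24, 0.15, 0.21, 0.41, 0.18 and 0.19 in quiescent cells. It was smaller in quiescent cells for 4, Wrb, Pptc7, Slc22a23 and Wwp1, with 0.040, 0.064, 0.088 and 0.23 against 0.31, 0.21, 0.26 and 0.26. These differences in SD, over 3 experiments each, were not tested. The error that counting alone gives such a ratio was 0.053 to 0.11 for the 10 genes in proliferating and 0.052 to 0.19 in quiescent cells. The SD was at or below it for 3 of 10 genes in proliferating cells, Pdcl3, Phtf1 and Mmd, and for 2 of 10 in quiescent cells, Wrb and Pptc7, so that the order among these is not resolved at this depth.

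The unevenness had a pattern by experiment. In proliferating cells experiment 5 had the smallest drop for 7 of 10 genes, and the median ratio of the 10 was -0.36 there, -0.71 in experiment 7 and -0.70 in experiment 9. In quiescent cells experiment 5 had the largest drop for 7 of 10 genes, and experiment 7 the smallest for 8. The medians were -1.34, -0.996 and -1.06 in experiments 5, 7 and 9. Wrb showed the widest range in proliferating cells, with 91.9%, 65.8% and 61.6% of control left, and 56.5%, 56.9% and 54.1% in quiescent cells. Wwp1 retained 80.5%, 56.4% and 64.8% in proliferating and 36.5%, 49.4% and 46.9% in quiescent cells.

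Stag2 had its smallest and largest drops in the same pairs of libraries. Its log2 ratio was -2.06, -2.54 and -2.19 in proliferating cells and -3.74, -3.04 and -3.19 in quiescent cells of experiments 5, 7 and 9. In experiment 5 the quiescent shNT library was the shallowest, with 14524429 counts, and the quiescent sh4 library the deepest, with 21987539, and the part of this in the ratios was not tested. The median ratio over all tested genes in that pair was 0.040.

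**Figure D3:**
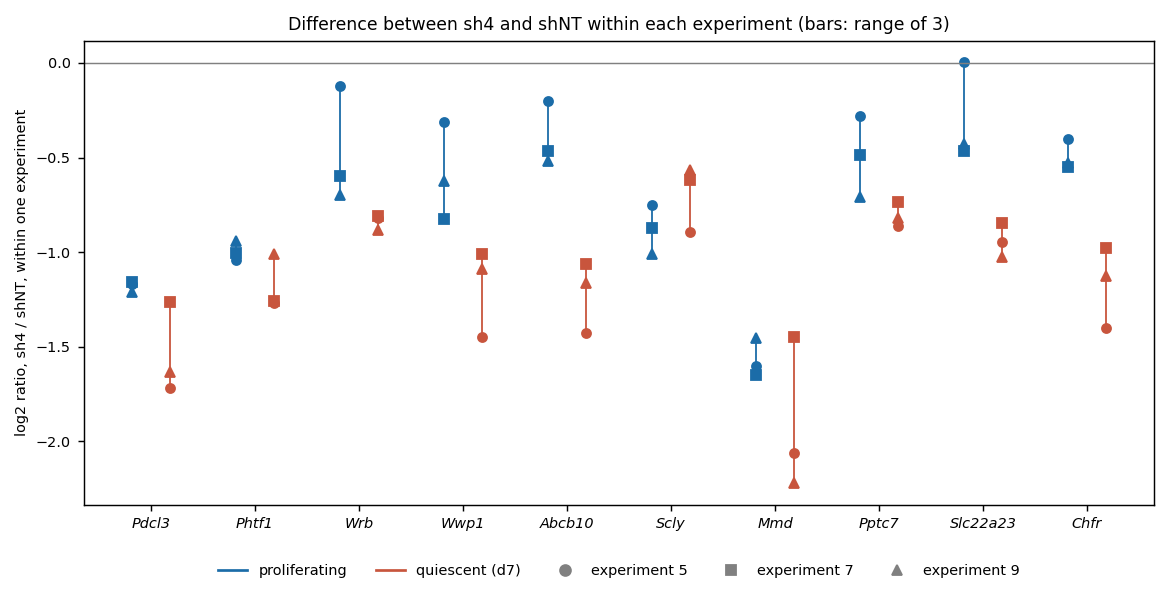
Log2 ratio of sh4 to shNT within 1 experiment (y axis) for each of the 10 genes (x axis), in proliferating and quiescent cells; symbols give the experiment and bars span the 3 ratios. Pdcl3 and Phtf1 are tight in proliferating cells (SD 0.028 and 0.051, both under the counting error), while Wrb and Slc22a23 reach from -0.12 and 0.0062 in experiment 5 to -0.70 and -0.47 in another experiment.

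The 209 other genes with the word in a 3′ UTR were compared with the rest in the same way. Their median log2 fold change was -0.094 in proliferating and -0.23 in quiescent cells. It was -0.064 and -0.13 for 1086 genes that hold 6 bases of the word but not the whole, and 0.0042 and 0.030 for 10554 genes with neither. Of the 216 genes with the word, the 7 listed ones included, 70.8% were lower in proliferating and 79.2% in quiescent cells, beside 49.1% and 45.3% of the genes with neither. Genes with the word had longer 3′ UTRs, with a median of 2762 bases against 1074 for those with neither. The reverse complement, TGCGTCA, has the same content of G and C and was held by 210 genes with a median 3′ UTR of 2744 bases. Their medians were -0.038 and -0.048. These are descriptions, since the word was picked for its low medians.

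**Figure D4:**
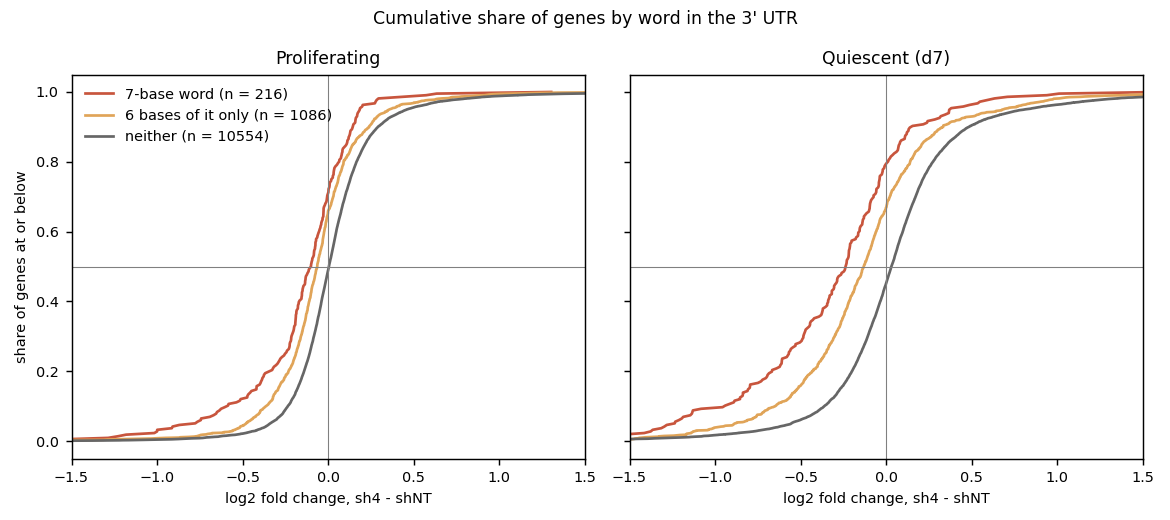
Cumulative share of tested genes (y axis) at or below a log2 fold change between sh4 and shNT (x axis), in proliferating (left) and quiescent cells (right). The curve of the 216 genes with the 7-base word lies left of that of 1086 genes with 6 of its bases, which lies left of the 10554 genes with neither; the crossing at a share of 0.5 is the median.

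By experiment, the median ratio of the 209 genes was -0.067, -0.17 and -0.12 in proliferating cells and -0.36, -0.18 and -0.16 in quiescent cells of experiments 5, 7 and 9. Experiment 5 thus again had the smallest difference in proliferating and the largest in quiescent cells. The 1086 genes with 6 bases of the word did too, at -0.039, -0.10 and -0.083 in proliferating and -0.24, -0.059 and -0.10 in quiescent cells. The 210 genes with the reverse complement had -0.017, -0.065 and 0.0073 in proliferating and -0.12, -0.014 and -0.0098 in quiescent cells. Their largest drop was thus also in quiescent cells of experiment 5, so that this part of the pattern was not particular to genes with the word. In proliferating cells their smallest difference was in experiment 9, not in experiment 5. Genes with neither the word nor 6 of its bases had medians between -0.0067 and 0.068 in the 6 pairs.

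**Figure D5:**
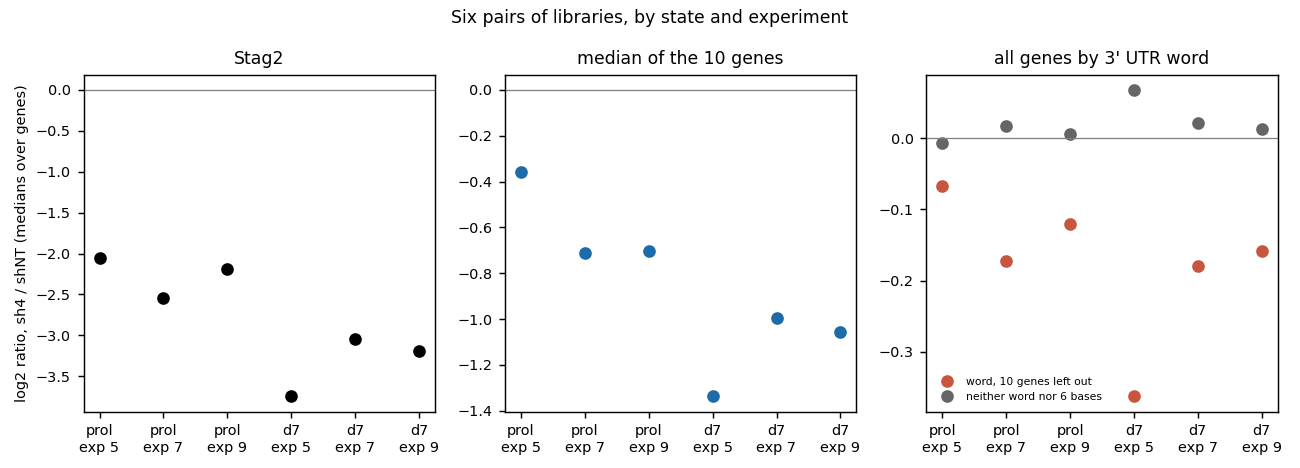
Log2 ratio of sh4 to shNT in the 6 pairs of libraries (x axis: state and experiment) for Stag2 (left), the median of the 10 genes (middle) and the medians of 209 other genes with the word and of 10554 genes with neither word nor 6 bases of it (right); the y axes differ in scale. In all 3 panels the drop is smallest in proliferating and largest in quiescent cells of experiment 5. The exception is the 10554 genes with neither the word nor 6 bases of it, which stay between -0.0067 and 0.068.

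In control cells, which carry no sh4, the response of the 10 genes to quiescence was tested on the shNT libraries. Mmd was lower in quiescent controls, at -1.53 on the log2 scale (SE 0.35, adjusted p 0.0115 by edgeR), and Slc22a23 higher, at 0.44 (SE 0.12, adjusted p 0.0251 by edgeR), so that 2 of 10 were called where 20% of all genes were. With the replicate block 4 of 10 were called, where 35.3% of all genes were: Mmd and Slc22a23 again (edgeR adjusted p 0.000668 and 0.0119), Pdcl3 higher (0.38, edgeR adjusted p 0.0368 against 0.0588 without the block) and Phtf1 lower (-0.31, edgeR adjusted p 0.0444 against 0.112). Mmd stayed past the threshold in each fit without 1 library (edgeR adjusted p at most 0.0423). Slc22a23 did not pass without the proliferating shNT library of experiment 5 (edgeR adjusted p 0.0612) or 9 (0.083) or the quiescent one of experiment 5 (0.0778) or 9 (0.0689). Pdcl3 passed without the proliferating shNT library of experiment 5 (edgeR adjusted p 0.0414) or the quiescent one of experiment 7 (0.0414). For the other 6 genes the values lay between -0.11 and 0.27, and their edgeR adjusted p values missed the threshold. This contrast shares its shNT libraries with the differences between hairpins, on which the genes were chosen.

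Relatives and partners of the 10 genes were compared as lists: phosducin-like proteins and chaperonin subunits, Phtf2, the tail-anchored insertion pathway, NEDD4 ligases, mitochondrial transporters and haem enzymes, selenocysteine metabolism, the PAQR family, PPM phosphatases, SLC22 transporters and Rnf8. Of 78 listed genes 70 were tested. In proliferating cells 0 of the 70 were called in either direction, without or with the replicate block (0.0242% of all genes in both), and 1 and 2 had an unadjusted p under 0.05, beside 228 (1.84%) and 645 (5.199%) of all genes. In quiescent cells 1 was called, where 0.435% of all genes were, and 1 with the block, where 3.55% were, while 4 and 9 had an unadjusted p under 0.05, beside 1489 (12.002%) and 2527 (20.4%) of all genes. The called gene was Sgta, a cochaperone that hands tail-anchored proteins on to the insertion pathway, which does not hold the word in its 3′ UTR. Sgta was lower by -0.63 on the log2 scale (SE 0.11), and its adjusted p by edgeR was 0.036, or 0.0144 when blocked. The median of the 70 was -0.026 in proliferating and 0.015 in quiescent cells, close to that over all genes. Phtf2, the paralog of Phtf1, had log2 fold changes of 0.24 (SE 0.28) and 0.51 (SE 0.28), not past the threshold. Of the relatives, 1, the ligase Nedd4l, holds the word, and its values were -0.0062 (SE 0.29) and -0.23 (SE 0.29), also not past it. Of 13 genes of the small RNA machinery, among them Dicer1 and the Argonaute genes, 0 were called in either state without or with the block. The shares over all genes were the 0.0242% in proliferating cells and the 0.435% and 3.55% in quiescent cells given above. Without the block the median of the 13 was -0.089 in proliferating and -0.15 in quiescent cells, beside -0.0022 and 0.016 over all genes.

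The genes whose 6 within-experiment ratios were nearest to the median ratios of the 10 genes were Ppap2a, Dlc1, Srebf2, Prkaa1 and Adam10, with root mean square differences of 0.072, 0.095, 0.11, 0.12 and 0.13 on the log2 scale among 10290 genes compared. Within the listed genes Wwp1 and Chfr lay nearest to that median, at 0.075 and 0.11, and Mmd farthest, at 0.92. The nearest gene, Ppap2a, a lipid phosphate phosphatase, had log2 fold changes of -0.58 (SE 0.24) and -1.15 (SE 0.25). None of the 5 held the 7-base word in a 3′ UTR (0 of 5), while Srebf2, Prkaa1 and Adam10 held 6 of its bases. Their likeness to the median is what chose them.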

How the data were processed

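The values the authors deposited are unnormalised counts, 1 row for each gene symbol and 1 column for each library. The submitters' processing notes name Bowtie, TopHat, HTSeq, DESeq2 and the build mm10, without roles or versions; the kit marks strand per the labels' protocols, but which annotation was used, and whether counting used strand, is not given in the sources used here, so overlapping and antisense genes may share reads. Samples were grouped by their titles. Genes were kept by filterByExpr of edgeR 4.0.16 in R 4.3.3 (minimum count 10, 12406 genes), scaled by TMM, fitted with 4 group means over 12 libraries (glmQLFit, glmQLFTest) and adjusted by Benjamini-Hochberg across every tested gene (threshold 0.05). Standard errors of fold changes are the fold change divided by the root of the test's F. Within-experiment ratios used log2 CPM with a prior count of 2. ERCC rows numbered 0. No 2 replicates agreed within sampling noise (chi-square per degree of freedom 36.6 to 99.7).

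The experiment number, which the labels also give as a batch, pairs the libraries: deviations from group means correlated with a mean r of 0.526 over 18 same-number pairs (0.225 to 0.789). A fit with it as a block is the replicate block. 3′ UTRs came from GENCODE M21 transcripts; 10874 tested symbols matched directly and 983 more by a RefSeq synonym. Named genes were Stag2, the 10 genes, listed relatives past the threshold in a knockdown contrast, and the 5 genes nearest to the median ratios (mean log2 CPM at least 2). Phtf2 and Nedd4l fall outside this rule and were named after their values were seen. The members, lists and tests were chosen with earlier results of these data known. The fit was tested on simulated data (12291 genes). In proliferating cells 52% of 100 genes lowered 2-fold and 95% of 100 lowered 4-fold were recovered, and in quiescent cells 54% and 92%. The lowered genes were picked above a floor on mean CPM and lowered in both states. No difference between experiments or states was simulated, so these shares need not hold for the real libraries. Alternatives were the block, size factors by median of ratios, DESeq2 1.42.0 (Wald test), omitting the filter, leaving out each library, other prior counts and scaling for the ratios, and words of 8 bases or the longest 3′ UTR only.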

Additional observations from a re-analysis of the deposited data

How the results depend on the processing

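With the replicate block the knockdown in quiescent cells had 440 genes past the threshold in place of 54, and quiescence in control cells 4374 in place of 2481. The DESeq2 Wald test gave 12 genes in place of 3 for the knockdown in proliferating cells, 390 in place of 54 in quiescent cells and 6 in place of 0 for the difference between the states, none of the 6 among the 10 genes. DESeq2 called 5 of the 10 genes lower in proliferating cells, Pdcl3, Phtf1, Mmd, Pptc7 and Scly, and 10 in quiescent cells. Of all 12406 genes it called 11 and 244 lower. The cause was not tested. Leaving out 1 library gave 1 to 3 genes in proliferating cells, 5 to 64 in quiescent cells, 0 for the difference between the states and 1394 to 3078 for quiescence in control cells. It turned the direction of some values that were not called: the state difference of Mmd ran from -0.79 to 0.086, and quiescence in control cells from -0.083 to 0.12 for Abcb10, -0.13 to 0.045 for Scly and -0.28 to 0.053 for Wwp1. A word of 8 bases in place of 7 moved the medians of the genes holding it from -0.10 to -0.18 and from -0.24 to -0.34, over fewer genes. Of 640 values of the 10 genes under these alternatives, 567 kept their direction and side of the threshold, 49 lost a call, 17 gained one and 7 turned. The replicate block changed no call of the 10 genes other than Mmd, Scly, Pdcl3 and Phtf1, given with the results. With 3 libraries a group, 52% and 54% of simulated 2-fold drops were recovered, in a simulation without differences between experiments or states.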

Other observations

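The word TGACGCA also occurs upstream of the 3′ UTR. In 553 tested genes it lay only in the coding sequence or the 5′ UTR, and these had median log2 fold changes of -0.064 (proliferating) and -0.12 (quiescent). In quiescent cells edgeR called 2 of them lower without the replicate block and 27 with it, where 0.282% and 1.96% of all genes were. Of the 216 genes with the word in a 3′ UTR it called 6 lower without the block and 29 with it, 7 of these 29 being listed genes. With the listed genes left out, it called 1 of 209 lower without the block and 22 with it, and 1 and 3 higher. The longer word ATGACGCA, which Stag2, Pdcl3, Phtf1 and Scly hold, was in the 3′ UTR of 53 tested genes, with medians of -0.18 and -0.34. The word was chosen on these same libraries, so these values describe them.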
